A study of Mus musculus with 24 samples.

Results

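The 22 miRs described here are those that other tissues and cell atlases tie to glia, immune cells, blood vessels and red cells rather than to neurons. They were chosen by name from a table of 1412 probe sets that held 722 mature miRs and 690 hairpin precursors. Taken were the mature probe sets of miR-219, miR-338, miR-21, miR-23, miR-24, miR-27, miR-142, miR-146, miR-155, miR-223, miR-126, miR-143, miR-145, miR-144, miR-451 and miR-486, without star strands and hairpins, and the rule used names only. By cell class of origin they comprised 3 miRs of oligodendrocytes, 6 of clusters prominent in astrocytes and other glia, 6 of immune cells, 4 of the vessel wall and 3 of red cells.

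Hippocampal RNA came from male C57BL/6 pups at postnatal day 9 (P9), with both hippocampi of a pup combined. From P5 the MS2 and MS5 groups received morphine at 2 or 5 mg/kg, and both also underwent daily separation from the dam and brief bouts of apnea produced with nitrogen and ended with oxygen. Controls (Con, 0 mg/kg) were untreated littermates that stayed with the dam, so each contrast with Con spanned morphine, stress and handling together, while MS5 versus MS2 compared doses under shared stress. miRs were measured on 9 arrays, 3 per group, and mRNAs on 15 arrays, 5 per group. The same Con arrays served both contrasts with Con, which are therefore not independent.

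A miR acts through its seed, the bases near its 5′ end that pair with target mRNAs, and lowers the stability or translation of those targets. In brain, miR-219 and miR-338 drive oligodendrocyte maturation, miR-146a and miR-146b dampen NF-κB signalling through the adaptors Traf6 and Irak1, and miR-155 promotes inflammatory responses. The miR-142 and miR-223 genes are active in blood-derived cells and microglia. miR-126 is made in endothelium, miR-143 and miR-145 in smooth muscle and pericytes, and miR-144, miR-451 and miR-486 in the red cell lineage. The miRs miR-23, miR-27 and miR-24 are cut from shared precursors at a pair of loci, and miR-21 is induced by growth and injury signals in glia.

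RefSeq mature sequences were matched for 17 of the 22 miRs. No match was found for miR-126-5p, miR-143, miR-145, miR-23b and miR-486. The search did not cover every chromosome, so a missing match does not show that RefSeq lacks a miR. It did cover the chromosomes of miR-126-5p and miR-23b, on which miR-126-3p and miR-27b were matched. Those the comparisons turn on, and the miRs that share a seed or a precursor with them, are shown 5′ to 3′ with the seed, bases 2 to 8, in capitals.
miR-146a: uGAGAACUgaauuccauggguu
miR-146b: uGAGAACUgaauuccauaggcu
miR-23a: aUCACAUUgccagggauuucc
miR-27a: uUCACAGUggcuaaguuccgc
miR-27b: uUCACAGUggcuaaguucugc
miR-24: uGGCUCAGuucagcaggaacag
miR-126-3p: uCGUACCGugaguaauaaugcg
miR-219: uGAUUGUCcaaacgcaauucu
miR-451: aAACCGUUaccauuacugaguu
miR-146a and miR-146b share the seed GAGAACU and differ only at G18A and U21C, counted from the 5′ end with the base of miR-146a first. miR-27a and miR-27b share the seed UCACAGU and differ at C19U. The arrays give no measure of how far the probes separate such near-identical miRs, so the values of these pairs are uncertain in that respect. In RefSeq on GRCm38.p6, miR-146a lies at chr11:43374435-43374456 on the minus strand and miR-146b at chr19:46342790-46342811 on the plus strand, so the pair comes from separate loci. miR-23a (chr8:84208563-84208583), miR-27a (chr8:84208727-84208747) and a copy of miR-24 (chr8:84208875-84208896) follow each other on the plus strand, and a second copy of miR-24 (chr13:63301251-63301272) lies behind miR-27b (chr13:63300760-63300780), also on the plus strand. miR-126-3p lies at chr2:26591402-26591423 on the plus strand, within the endothelial gene Egfl7. miR-219 is encoded at chr2:29845689-29845709 and at chr17:34025052-34025072, both on the minus strand. miR-451 lies at chr11:78073186-78073207 on the plus strand, close to miR-144 (chr11:78073047-78073066).

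The deposited miR values are log2 intensities that the authors had normalized between arrays, with array medians of 4.17 to 4.21. No detection call was used here. As a guide to the low end, the mean levels of the 690 hairpin probe sets had a median of 4.09 and a 95th percentile of 4.80, a limit chosen after the values were seen. The limit lay above the mean level of 9 of the 22 miRs (3.91 to 4.53), namely miR-219, miR-338-3p, miR-21, miR-142-3p, miR-142-5p, miR-155, miR-223, miR-126-5p and miR-144. Of all 722 mature probe sets, 53.0% were below it. The other 13 miRs had mean levels of 5.35 to 12.19. The signal of the 9 low miRs could not be told apart from that of hairpin probe sets, and their differences are given as values only. The tissue is a mixture of cells, so fewer cells of a type and less of a miR per cell cannot be told apart.

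The libraries carried some departures from their labels, which bear on the results by replicate. The mRNA array of MS5 replicate 9 held the female-specific RNA Xist at 11.34 (log2), against 5.89 to 6.08 on the other 14 mRNA arrays, although all pups were labelled male. The mRNA array of MS2 replicate 4 had a mean of 10.05 for hippocampal neuron markers, against 11.86 to 12.60 on the others. An mRNA array and a miR array carry the same replicate number in 8 cases, but the numbers did not line up for choroid plexus signal in all of them. miR-204, a miR of choroid plexus and pigmented epithelium, was at 5.23 and 5.37 on the miR arrays of MS5 replicates 12 and 14 and at 7.31 on replicate 9, whereas the choroid plexus mRNAs averaged 12.19, 8.81 and 9.86 on the mRNA arrays of replicates 12, 14 and 9. Of these, replicate 14 was low on both. MS2 replicates 3 and 4 ran in the same order on both, with miR-204 at 8.30 and 6.84 and the mRNAs at 12.47 and 11.92. On Con replicates 16, 17 and 18 miR-204 was at 6.99, 7.06 and 7.53, and the mRNAs fell from 12.75 to 12.68 and 11.99. The platforms were therefore not paired by number, and results for miRs are given below also without MS2 replicate 4 or MS5 replicate 9 where these moved a call. Leaving out MS5 replicate 9 moved none of the calls of the 22 miRs.

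In the MS2 group miR-146a and miR-146b rose, the only 2 of the 22 miRs to pass the study's threshold, a change exceeding 1.5-fold whose unadjusted limma p was below 0.05. At that threshold 2.97% of all 1412 probe sets differed, 1.42% higher and 1.56% lower in MS2. The 1412 include the 690 hairpin probe sets, and 53.0% of the mature ones were below the hairpin limit, against 9 of the 22 miRs. These shares and those given below are thus not shares among miRs of like level, which were not computed. Of the 22 miRs, 13 had a higher and 9 a lower mean in MS2 than in Con, with a median difference of 0.07 (log2) against -0.01 over all probe sets. In limma with Benjamini-Hochberg adjustment over the 1412 probe sets, 0 of the 22 had an adjusted p under 0.05, with a smallest value of 0.0574, while 16 probe sets (1.13%) did in the whole table. At an unadjusted p under 0.05, 3 of the 22 were higher and 2 lower, against 5.52% and 7.65% of all probe sets.

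miR-146a stood at 6.21, 6.31 and 6.32 (log2) on the Con arrays of replicates 16, 17 and 18, at 6.88, 7.10 and 6.74 on the MS2 arrays of replicates 3, 4 and 6, and at 6.20, 6.65 and 6.42 on the MS5 arrays of replicates 9, 12 and 14. Every MS2 array lay above every Con and every MS5 array, while the MS5 arrays overlapped Con. The mean was 6.28 ± 0.07 in Con, 6.91 ± 0.18 in MS2 and 6.42 ± 0.22 in MS5 (SD, n = 3). The MS2 difference of 0.63 was 1.54-fold (standard error 0.13, 95% confidence interval 0.34 to 0.91, limma adjusted p = 0.0574). Without MS2 replicate 4, the highest array, the difference was 0.53 and fell short of 1.5-fold. The MS5 difference from Con was 0.14 (95% interval -0.14 to 0.43, adjusted p = 0.888).

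miR-146b was at 5.43, 5.95 and 5.38 on the Con arrays of replicates 16, 17 and 18, at 6.34, 5.97 and 6.25 on the MS2 arrays of replicates 3, 4 and 6, and at 5.97, 6.15 and 5.96 on the MS5 arrays of replicates 9, 12 and 14. Both treated groups lay above all Con arrays, though Con replicate 17 came within a few hundredths of the lowest treated arrays. Group means were 5.59 ± 0.31, 6.18 ± 0.19 and 6.03 ± 0.11 in Con, MS2 and MS5 (SD, n = 3). The difference was 0.60 in MS2, or 1.51-fold (standard error 0.16, interval 0.24 to 0.95, limma adjusted p = 0.112), and 0.44 in MS5, or 1.36-fold (interval 0.09 to 0.79, limma adjusted p = 0.474). The MS2 value sat just past the threshold and was lost without Con replicate 16 (0.52), without Con replicate 18 (0.49), without MS2 replicate 3 (0.52) and without MS2 replicate 6 (0.57). Without Con replicate 17 the MS5 difference was 0.62 and passed.

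The same-seed pair thus differed in its dose pattern by value. MS5 versus MS2 gave -0.49 for miR-146a (interval -0.77 to -0.20, limma adjusted p = 0.478) and -0.16 for miR-146b (interval -0.51 to 0.20, adjusted p = 0.894). Whether these 2 changes differed from each other was not tested.

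The remaining immune miRs were low in signal. miR-155 had means of 4.42, 4.60 and 4.58 in Con, MS2 and MS5, with differences from Con of 0.18 and 0.16. miR-223, which is made by myeloid cells, had means of 4.42, 4.17 and 4.25, so that both treated groups lay below all Con arrays by 0.25 and 0.17 on the log2 scale at a level within the hairpin range. miR-142-3p was at 3.91, 4.16 and 4.27 on the Con arrays, 3.92, 4.03 and 3.78 on the MS2 arrays and 3.92, 3.92 and 3.91 on the MS5 arrays of replicates 9, 12 and 14. Its groups overlapped, with differences from Con of -0.20 in both. For the other arm, miR-142-5p, the differences were -0.21 and -0.16, from a Con mean of 4.12.

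Among the vascular miRs, the endothelial miR-126-3p was higher in MS2 by value. It measured 9.91, 10.27 and 9.94 on the Con arrays, 10.67, 10.34 and 10.61 on the MS2 arrays of replicates 3, 4 and 6, and 9.94, 10.47 and 10.15 on the MS5 arrays of replicates 9, 12 and 14. All MS2 arrays lay above all Con arrays, with MS2 replicate 4 next to Con replicate 17, and the MS5 arrays spread across both groups. Means were 10.04 ± 0.20, 10.54 ± 0.18 and 10.19 ± 0.26 (SD, n = 3). The MS2 difference of 0.50 (1.41-fold, standard error 0.15, interval 0.15 to 0.85, limma adjusted p = 0.189) stayed short of 1.5-fold. It passed without MS2 replicate 4 (0.60) and without Con replicate 17 (0.62). In MS5 the difference from Con was 0.15, and MS5 versus MS2 gave -0.35 (limma adjusted p = 0.706). miR-126-5p, the other arm of the same precursor, was in the hairpin range at 3.93, 3.94 and 3.87 and differed from Con by 0.01 and -0.06.

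The smooth muscle miRs had lower means in MS5. miR-145 was at 10.25, 10.49 and 10.23 on the Con arrays, 10.50, 10.10 and 9.87 on the MS2 arrays and 9.94, 9.87 and 9.93 on the MS5 arrays. All MS5 arrays lay below all Con arrays, and the MS2 arrays spanned both. The mean was 10.32 ± 0.14 in Con, 10.16 ± 0.32 in MS2 and 9.91 ± 0.04 in MS5 (SD, n = 3), and the MS5 difference was -0.41 (standard error 0.15, interval -0.74 to -0.08, limma adjusted p = 0.474). Its genomic neighbour miR-143 had means of 9.61 ± 0.11, 9.74 ± 0.37 and 9.36 ± 0.18, with an MS5 difference of -0.25 (interval -0.64 to 0.14, adjusted p = 0.806) whose groups also did not overlap. Against MS2, the MS5 difference was -0.38 for miR-143 and -0.24 for miR-145. Without MS2 replicate 6, on which miR-143 was lowest in its group at 9.31, the former became -0.60 and passed the threshold.

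Across the glial clusters miR-24 was the member that stood apart from Con in both treated groups, and its value was lower. It measured 12.53, 12.34 and 12.35 on the Con arrays, 12.09, 12.05 and 11.99 on the MS2 arrays, and 12.31, 11.99 and 12.08 on the MS5 arrays of replicates 9, 12 and 14. No MS2 or MS5 array reached the lowest Con array, although MS5 replicate 9 came close. Means were 12.41 ± 0.10, 12.04 ± 0.05 and 12.13 ± 0.16 (SD, n = 3). The difference was -0.36 in MS2 (standard error 0.10, interval -0.58 to -0.15, limma adjusted p = 0.112) and -0.28 in MS5 (interval -0.49 to -0.07, limma adjusted p = 0.466), both short of 1.5-fold.

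The miRs cut from the same precursors as miR-24 did not show this pattern by value. On the MS2 arrays miR-23a was 0.21 above Con (10.89 against 10.67, adjusted p = 0.406), miR-27a differed by -0.01 (9.01 against 9.02), miR-27b by 0.30 (8.92 against 8.62, adjusted p = 0.506) and miR-23b by -0.01 (11.81 against 11.83). In MS5 the differences were -0.01 for miR-23a, -0.06 for miR-27a, 0.21 for miR-27b and -0.14 for miR-23b. Array by array, miR-23b was at 11.94, 11.76 and 11.78 in Con, 11.87, 11.67 and 11.89 in MS2 and 11.57, 11.82 and 11.66 in MS5, and the groups overlapped. The difference between miR-24 and its cluster mates was not tested. The passenger strand of the miR-24 copy on chromosome 8, miR-24-2-star, had means of 6.45, 6.35 and 6.20 in Con, MS2 and MS5, with differences from Con of -0.10 and -0.25. It was the only 1 of 7 passenger strands of these miRs above the hairpin limit, and 0 of the 7 passed the threshold in any contrast. The 30 hairpin probe sets of these loci had mean levels of 3.90 to 4.35, and 0 passed.

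miR-21 was within the hairpin range, at 4.00, 3.86 and 4.34 on the Con arrays, 4.48, 3.82 and 4.26 on the MS2 arrays and 4.19, 4.48 and 4.32 on the MS5 arrays. The groups overlapped, with differences from Con of 0.11 in MS2 and 0.26 in MS5 (adjusted p = 0.806).

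In the oligodendrocyte class, miR-219 and miR-338-3p had no signal above the hairpin range at P9. miR-219 was at 4.08, 4.05 and 3.99 on the Con arrays, 4.12, 4.09 and 4.09 on the MS2 arrays and 4.04, 4.20 and 4.21 on the MS5 arrays. The MS2 arrays all lay above the Con arrays, but by 0.06 between means, and the MS5 arrays overlapped Con at 0.11. miR-338-3p was at 4.00, 4.07 and 4.14 in Con, 4.07, 4.07 and 3.99 in MS2 and 3.95, 4.07 and 4.20 in MS5, with overlapping groups and differences of -0.02 and 0.00. Only the other arm, miR-338-5p, was above the limit, with means of 5.64 ± 0.28, 5.95 ± 0.22 and 5.94 ± 0.27 (SD, n = 3) and differences of 0.31 (adjusted p = 0.536) and 0.30 (adjusted p = 0.740).

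Of the red cell miRs, miR-451 was at 4.64, 5.09 and 5.59 on the Con arrays, 6.09, 5.04 and 5.65 on the MS2 arrays and 5.37, 5.31 and 5.37 on the MS5 arrays. Con and MS2 arrays spread widely and overlapped, while the MS5 arrays were close together within the Con range. The mean difference was 0.48 in MS2 (standard error 0.28, interval -0.14 to 1.11, adjusted p = 0.527) and 0.24 in MS5 (interval -0.38 to 0.87), where it was 0.01 without Con replicate 16. Without MS2 replicate 4 the MS2 value was 0.76 and without Con replicate 18 it was 0.73, both past the threshold, while without MS2 replicate 3 it was 0.24. miR-144, its partner on the same precursor, had means of 3.99, 3.93 and 3.89 in the hairpin range and differed from Con by -0.06 and -0.10. miR-486, which arises within the erythrocyte ankyrin gene Ank1, had means of 7.97 ± 0.25, 8.06 ± 0.33 and 8.13 ± 0.16 (SD, n = 3), with differences of 0.09 and 0.16 and overlapping groups.

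Counted over all 22, the MS2 and Con arrays did not overlap for 4 miRs that were higher (miR-146a, miR-146b, miR-126-3p and miR-219) and 2 that were lower (miR-24 and miR-223), against 7.22% and 8.57% of all 1412 probe sets in each direction. With 3 arrays against 3, such a separation is the most extreme of 20 assignments and its two-sided exact permutation p of 0.1 is the smallest the design allows.

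In the MS5 group 0 of the 22 miRs passed the threshold against Con, where 0.992% of all probe sets did (0.212% higher, 0.779% lower). The means were higher for 11 and lower for 11, with a median difference of -0.01 (log2) against 0.00 over all probe sets. limma gave 0 of the 22 an adjusted p under 0.05 (smallest 0.466), and 0 of the 1412. At an unadjusted p under 0.05, miR-146b was higher and miR-24 and miR-145 were lower, against 4.25% of all probe sets in each direction. The groups did not overlap for 1 miR that was higher, miR-146b, and 4 that were lower, miR-24, miR-145, miR-143 and miR-223, against 6.52% and 5.74% of all probe sets.

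Between the doses, with stress shared, 0 of the 22 miRs passed the threshold, against 0.425% of all probe sets (0.142% higher, 0.283% lower), and limma gave 0 of the 22 an adjusted p under 0.05 (smallest 0.478). The mean was lower in MS5 than in MS2 for 14 of the 22, and for 11 of the 13 above the hairpin limit, with a median over the 22 of -0.04 against 0.01 over all probe sets. The share of all mature miRs above that limit with a lower mean was not computed. The 11 of 13 can therefore not be called particular to these miRs. At an unadjusted p under 0.05, 0 were higher and 3 were lower, miR-146a, miR-126-3p and miR-23a (-0.23), against 4.39% and 2.62% of all probe sets. Only miR-146a had groups that did not overlap, lower in MS5, where 2.83% of all probe sets were lower without overlap. All 4 vascular miRs had lower means in MS5 than in MS2, from -0.38 to -0.07. Since the MS2 arrays enter both this contrast and that of MS2 with Con, an MS2 mean that lies high counts in both.

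The mRNA arrays gave the genes that host these miRs, some of their known targets and the markers of the same cell types. None of the host or target genes passed the threshold in either group, where 0.0233% of 55681 probesets did in MS2 and 0.228% in MS5, and limma gave 0 probesets an adjusted p under 0.05 (2324 and 2176 at an unadjusted p under 0.05). Egfl7, host of miR-126, differed from Con by -0.11 in MS2 and -0.20 in MS5 (log2). The differences were 0.05 and 0.09 for Aatk (miR-338), 0.02 and 0.05 for Vmp1, which overlaps the miR-21 gene, 0.13 and 0.06 for Ank1, and -0.15 and -0.22 for 2010111I01Rik, which holds miR-23b, miR-27b and a copy of miR-24. Single arrays set the MS2 values of 3 of these 5 genes, since without MS2 replicate 4 the differences were 0.02 for 2010111I01Rik and 0.02 for Ank1, and Egfl7 stood at -0.24 without MS2 replicate 5 and at -0.07 without MS2 replicate 4 or Con replicate 19. The precursor transcripts Mir155hg, Mir142hg and Mir143hg were not named on the array and were not analysed here.

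The miR-146 targets Traf6 and Irak1 differed from Con by -0.13 and 0.03 in MS2 and by 0.02 and -0.01 in MS5. Among the known targets reported here, 0 passed in either group and Pdcd4, a translation inhibitor repressed by miR-21, differed by 0.36 and 0.44. The Pdcd4 values rested on Con replicate 15, without which they were 0.14 and 0.21. The miR-126 target Spred1, a brake on growth factor signalling, differed by -0.05 and 0.05. For the remaining ones, namely the miR-155 targets Socs1 and Inpp5d, the miR-145 target Klf4, the miR-451 targets Ywhaz and Cab39, Lmnb1 of miR-23, Mef2c of miR-223, and Sox6 and Pdgfra of miR-219, the differences spanned -0.11 (Ywhaz) to 0.15 (Lmnb1) in MS2 and -0.13 (Socs1) to 0.24 (Mef2c) in MS5.

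The marker genes of the miRs' cell types were read the same way, and many of the highest and lowest differences below rest on 1 array. In MS2 0 listed genes of any cell type passed the threshold. Differences from Con in MS2 lay between -0.05 (Mbp) and 0.79 (Mobp) for 14 genes of the oligodendrocyte lineage and between -0.23 (Slc1a3) and 0.24 (S100b) for 10 astrocyte genes. They lay between -0.11 (C1qa) and 0.13 (Itgam) for 12 microglial genes, and between -0.41 (Mpo) and 0.09 (S100a9) for 8 genes of blood leukocytes. For the vessel wall the range was -0.14 (Emcn) to 0.16 (Erg) over 10 endothelial genes and -0.19 (Pdgfrb) to 0.17 (Myocd) over 9 mural cell genes, and for 12 red cell genes it was -0.12 (Slc4a1) to 0.07 (Alas2). The 8 hippocampal neuron genes ranged from -0.76 (Neurod2) to 0.07 (Prox1) in MS2, a list on which the mRNA array of MS2 replicate 4 stood apart. Without that array Neurod2 differed by -0.04, Slc1a3 by -0.05, S100b by 0.08, C1qa by -0.03, Pdgfrb by -0.12 and Mobp by 0.27, and the oligodendrocyte genes with a higher mean in MS2 numbered 7 of 14 in place of 12. Without Con replicate 19 Mpo differed by -0.18 and S100a9 by 0.62, and without MS2 replicate 5 Emcn differed by -0.08.

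In MS5, 13 of the 14 oligodendrocyte lineage genes had higher means, from -0.04 (Pdgfra) to 1.12 (Mobp), and 0 passed. Without MS5 replicate 8 the count was 10 and Mobp differed by 0.45. The ranges were -0.21 (Sox9) to 0.21 (S100b) for astrocytes, -0.13 (Trem2) to 0.16 (Itgam) for microglia and -0.32 (S100a8) to 0.28 (Cd3e) for leukocytes, with 0 genes past the threshold. Without Con replicate 19 S100a8 differed by 0.06 and Trem2 by -0.01. Endothelial genes ranged from -0.31 (Emcn) to 0.23 (Kdr), with 7 of 10 lower and 0 past. Of the 9 mural cell genes, which share their cells with miR-143 and miR-145, 7 were lower, from -0.35 (Acta2) to 0.05 (Rgs5), and 0 passed. The median difference was -0.05 in the endothelial as in the mural cell list. Acta2 differed by -0.14 without MS5 replicate 9 and by -0.59 without MS5 replicate 13. All 12 red cell genes had lower means in MS5, from -0.49 (Hbb-b1) to -0.00 (Epb42), and 0 passed. When arrays were left out singly, 10 to 12 of the 12 were lower, and Hbb-b1 differed by -0.74 without Con replicate 17.

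The listed genes past the threshold in MS5 belonged to tissue at the border of the hippocampus. They were 8 of 9 choroid plexus genes, namely Folr1 (13.86 in Con, 11.86 in MS5), Calml4, Aqp1, Clic6, Cldn2, Otx2, Slc4a5 and Kl (-1.11), all lower (0.183% of all probesets) with a list median of -1.32, and 1 of 6 meningeal genes, Slc13a4 (-0.65), in a list whose highest difference was -0.02 (Aldh1a2). The study had already named these 8 choroid plexus genes among its lowered mRNAs, from the same arrays. Their count is therefore not an independent result. In MS2 the choroid plexus list ranged from -0.44 (Kl) to 0.14 (Aqp1) and the meningeal list from -0.18 (Slc13a4) to 0.16 (Aldh1a2). Without Con replicate 19 Aldh1a2 differed by -0.14 in MS2 and -0.32 in MS5. The choroid plexus list averaged 11.73 to 12.75 on Con, 11.78 to 12.47 on MS2 and 8.81 to 12.19 on MS5 mRNA arrays. Within MS5 it was low on replicates 14 (8.81) and 9 (9.86), and at 11.48, 12.01 and 12.19 on replicates 13, 8 and 12. Without MS5 replicate 9, without MS5 replicate 14 or without Con replicate 16, 4 listed genes passed in place of 9. The part of choroid plexus tissue in the MS5 values of miR-143, miR-145 and miR-24 was not tested.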

How the data were processed

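The 22 miRs, the gene lists and the tests were chosen with earlier results of these data known. Groups followed the sample labels. For miRs, the deposited unit is log2 intensity per probe set after RMA, a name that the study itself does not use. The study describes processing with Affymetrix miR QCTool: background correction, variance stabilization, quantile normalization and combination of probes by median polish. The mRNA files hold spot intensities as deposited from Agilent Feature Extraction 10.7.1.1. Here these were adjusted with normexp at an offset of 50, quantile normalized over 62976 spots and set to log2, control spots were dropped, and spots of a probe were averaged to 55681 probesets. A gene was represented by its probeset of highest mean level.

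R 4.3.3 with limma 3.58.1 and Python 3.11.15 with pandas 2.3.3 were used. Each platform was compared in 1 limma fit of 3 groups (lmFit, eBayes), with Benjamini-Hochberg adjustment over all probe sets. The study's threshold was a change exceeding 1.5-fold whose unadjusted p was below 0.05. Exact permutation tests were two-sided. The number of arrays limited the precision. The labels do not say whether pups came from separate litters, so p-values measure the spread between pups only.

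Values by array are given for miRs past the threshold, for those whose groups did not overlap with a difference over 0.3 (log2), and for the leading miRs of each class. Host and target genes came from a set list, and of each cell type list the genes past the threshold and the highest and lowest were named. Alternatives for miRs were array weights, centring on the array median, a further quantile normalization, a filter on level, mature probe sets only, the 2 compared groups only, a variance trend and leaving out each array. For mRNAs they were the processed signal scaled to its 75th percentile, the deposited log2 values, the slide as a block, the mean of all probesets, only probesets well above background and leaving out each array. Steps were tested on simulated data. PCR values and target predictions were not analysed here. A known target and a result of the neuronal list are not reported here.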

Additional observations from a re-analysis of the deposited data

Results flagged for a closer look

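Among 56 host, target and marker genes in 3 groups of 5 mRNA arrays, 19 of 168 gene and group combinations had 1 array far from the other 4. Chance gives about 1 in 20 such groups for independent genes that were picked without regard to their values. Marker genes were named here for an extreme group difference, which 1 stray array can produce, and flags on the same array are not independent. The 19 can therefore not be judged against that rate. The miR groups have 3 arrays each and were not tested for stray arrays. All values are log2.

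The array of MS2 replicate 4 held 8 of these. The neuronal transcription factor Neurod2 was at 10.59 (others 14.06 to 14.36), and the astrocyte glutamate transporter Slc1a3 at 13.79 (14.63 to 14.75). The miR host genes 2010111I01Rik, at 9.32 (10.14 to 10.21), and Vmp1, at 13.61 (13.81 to 13.87), were low there, and Ank1 was high at 7.90 (7.27 to 7.44). Of the miR targets, Pdgfra was high at 12.87 (12.48 to 12.58) and Socs1 at 9.29 (8.45 to 8.63), while Ywhaz was low at 11.99 (12.21 to 12.29).

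The array of Con replicate 19 was high in the myeloid genes S100a9, at 10.49 (others 7.59 to 8.16), S100a8, at 8.64 (6.48 to 6.90), and Mpo, at 8.70 (7.46 to 7.62). It was also high in the microglial receptor gene Trem2, at 11.59 (10.95 to 11.03), and low in the meningeal gene Aldh1a2, at 8.92 (10.23 to 10.68).

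On the array of MS2 replicate 5, whose median spot signal was 58.2 against 121 to 154 on the others, Cab39 was at 13.90 (13.52 to 13.63), Egfl7 at 14.82 (14.14 to 14.30) and Erg at 6.74 (7.04 to 7.16). The other 3 were the miR-21 target Pdcd4 on Con replicate 15, at 14.67 (15.57 to 15.91), 2010111I01Rik on MS5 replicate 12, at 10.29 (9.79 to 9.93), and Sox6 on MS5 replicate 9, at 7.78 (8.08 to 8.11). Their causes were not tested.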

How the results depend on the processing

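No miR changed sign while past the threshold on either side. Against the 2 miRs past it in MS2, leaving out each array gave 1 to 3. The 0 with an adjusted p under 0.05 in MS2 became 1 with quantile normalization on top (miR-146a), 1 with only probe sets above the median level (miR-146a), 2 with array weights (miR-146a and miR-146b) and 0 to 2 when arrays were left out (2 without MS2 replicate 4). Over the alternatives the limma adjusted p lay between 0.0371 and 0.266 for miR-146a and between 0.0320 and 0.382 for miR-146b. The fold limit alone was missed by miR-146a with array weights (0.57) and by miR-146b with quantile normalization on top (0.56), and miR-126-3p (0.62, quantile normalization) and miR-451 (0.63, array weights) passed it. Against 0 miRs, leaving out each array gave 0 to 1 for MS5 versus Con and 0 to 1 for MS5 versus MS2, where without MS5 replicate 12 miR-146a passed at -0.60. The 9 listed mRNAs past the threshold in MS5 became 4 to 12 when arrays were left out and 8 with the slide as a block. Each mRNA slide held all groups. Slide 2 carried Con replicates 16 and 19, MS2 replicates 4 and 5, and MS5 replicates 9, 12 and 14. All arrays flagged above except Con replicate 15 were thus on that slide, including those with high Xist, low neuron markers and low spot signal. MS5 replicates 9 and 14, low in choroid plexus genes, were on it as well. No batch was known for the miR arrays. No analysis paired by litter was possible because the labels do not give the litter of a pup. The hairpin range limits what the 9 low miRs can show, and 3 arrays per group limit all others.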
